A study of Mus musculus with 3 samples.

Results

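Ser5-phosphorylated RNA polymerase II (Pol_II) was examined at 9 genes of interleukin signalling in mouse macrophages, namely the receptor genes Il4ra, Il13ra1, Il6ra, Il6st, Il10ra, Il10rb, Il17ra and Il15ra and the cytokine gene Il15. They were taken by symbol from the GENCODE M1 annotation of mm9, and all 9 were found among the 22208 protein-coding genes on chromosomes 1 to 19 and X. Chromatin immunoprecipitation and sequencing (ChIP-Seq) used an Abcam antibody against the carboxy-terminal repeat of Pol_II phosphorylated at serine 5, a form that is abundant where the polymerase starts a gene and passes into it. The cells were primary macrophages from the bone marrow of female Fvb mice (Fvb/Hsd in the study's methods), grown in L929-conditioned medium, which supplies the macrophage growth factor Csf1, and used on the 7th day of differentiation. There were 3 libraries: Ser5 from untreated cells, Ser5 from cells given 10 ng/ml lipopolysaccharide (LPS, a bacterial surface molecule that activates macrophages) for 2 h, and input DNA of untreated cells, which shows the background without antibody. No genotype other than the strain is labelled, the number of mice behind a library is not given in the sources used here, and no input of LPS-treated cells was used.

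Most of these receptors combine a chain that binds the ligand with one that several cytokines share. Il4ra encodes the chain that binds IL-4 and, together with the Il13ra1 chain, IL-13, and it signals through the kinases Jak1, Jak3 and Tyk2 to Stat6 in macrophages. Il6ra encodes the chain that binds IL-6 and Il6st encodes gp130, the signalling chain of the whole IL-6 family, whereas Il10ra and Il10rb encode both chains of the receptor for IL-10, a cytokine that restrains activated macrophages. Il17ra encodes a chain common to the receptors of several IL-17 cytokines. Il15ra encodes the chain that binds IL-15 inside the macrophage and presents it on the surface to NK cells and T cells.

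The libraries held 7616771 tags (untreated Ser5), 6249819 tags (LPS Ser5) and 7533308 tags (input) on chromosomes 1 to 19 and X. With 1 library per condition no test was possible and no p-value is given. Intervals are 95% intervals that cover counting error alone, and a gene was called higher or lower by size only, at 2-fold or more with 10 tags or more in the 2 Ser5 libraries together. The LPS label was checked with Ccl5, Tnf, Il1b, Il6, Ptgs2 and Cxcl2, and all 6 were higher after LPS in the gene body, by 14.9-fold (Tnf) to 776-fold (Ccl5). The 7 macrophage markers found, of 8, had a summed level of 476 TPM (tags per 1000000 tags of a library) in their TSS windows in untreated cells, 306 after LPS and 23.2 in input, and 7 and 6 of them held a Ser5 peak at the TSS. None of the defining markers of T cells, B cells, dendritic cells, fibroblasts or NK cells held one, and of the neutrophil and precursor markers 1 did after LPS. The part of these marker levels in the results was not tested. These are bulk samples, so fewer cells with Pol_II on a gene and less Pol_II per cell cannot be told apart.

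The 250 bases before the start of 5 of the genes are given because Ser5 Pol_II accumulated beside them and because they differ in what followed after LPS. They come from the NCBIM37 (mm9) genome and run 5′ to 3′ in the direction of transcription, and capitals mark a match to a searched motif. Il15 is the gene with the highest ratio of LPS to untreated Ser5 in the body (chr8:84927122-84927371, minus strand), Il6ra the one with the lowest (chr3:89717085-89717334, minus strand). The Il6st sequence lies before the RefSeq start (chr13:113254028-113254277, plus strand), and Il17ra (chr6:120412965-120413214, plus strand) and Il15ra (chr2:11626664-11626913, plus strand) carry the remaining matches.
Il15: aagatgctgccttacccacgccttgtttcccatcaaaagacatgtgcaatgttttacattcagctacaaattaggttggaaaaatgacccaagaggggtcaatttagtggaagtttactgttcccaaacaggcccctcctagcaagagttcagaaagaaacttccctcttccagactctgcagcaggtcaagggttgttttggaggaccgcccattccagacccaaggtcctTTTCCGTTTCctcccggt
Il6ra: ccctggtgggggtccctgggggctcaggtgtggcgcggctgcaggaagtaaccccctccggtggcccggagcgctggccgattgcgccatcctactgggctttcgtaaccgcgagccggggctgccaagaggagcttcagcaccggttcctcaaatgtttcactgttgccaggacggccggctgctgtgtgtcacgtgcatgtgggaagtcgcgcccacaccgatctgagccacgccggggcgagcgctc
Il6st: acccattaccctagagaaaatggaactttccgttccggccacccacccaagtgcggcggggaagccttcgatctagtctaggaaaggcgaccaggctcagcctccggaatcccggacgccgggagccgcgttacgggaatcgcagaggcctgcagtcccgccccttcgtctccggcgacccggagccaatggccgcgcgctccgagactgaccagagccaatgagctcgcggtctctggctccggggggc
Il17ra: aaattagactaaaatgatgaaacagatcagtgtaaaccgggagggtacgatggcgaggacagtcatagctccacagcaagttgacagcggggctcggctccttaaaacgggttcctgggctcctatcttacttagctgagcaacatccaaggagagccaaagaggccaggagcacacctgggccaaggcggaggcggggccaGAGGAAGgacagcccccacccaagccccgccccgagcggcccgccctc
Il15ra: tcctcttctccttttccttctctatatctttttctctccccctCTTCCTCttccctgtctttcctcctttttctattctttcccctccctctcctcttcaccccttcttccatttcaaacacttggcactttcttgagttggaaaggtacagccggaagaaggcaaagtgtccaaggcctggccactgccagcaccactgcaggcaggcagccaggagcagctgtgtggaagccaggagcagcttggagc

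On both strands of these 250 bases 6 motifs were searched, namely the core of the interferon response element, in which GAAA is followed after 2 bases by GAAA, the STAT motif (TTCNNNGAA), the kappa B motif, in which GGG is followed after 2 bases by TTTCC, the Ets and PU.1 motif (GAGGAAG), the AP-1 motif (TGANTCA) and the TATA box (TATAAA). Il15 held the interferon response core on the opposite strand at bases -18 to -9 from the TSS, where the printed strand reads TTTCCGTTTC, and 3.37% of 22203 coding promoters of this length held that motif. The Ets and PU.1 motif was found in Il17ra at bases -48 to -42 and, on the opposite strand, in Il15ra at bases -207 to -201, against 10.5% of all promoters. The letters of the other 4 motifs were in none of the 9 windows, and they were in 6.84% (STAT), 1.38% (kappa B), 6.0% (AP-1) and 12.3% (TATA box) of all promoters. CpG dinucleotides ranged from 1 in Il15ra and 4 in Il15 to 22 in Il13ra1 and Il6ra and 26 in Il6st, beside a median of 8 over all promoters. A match is a description of these letters and no evidence of binding.

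Before LPS, Ser5 Pol_II stood above input at the start of most of the genes. Levels are given as TPM per kb in the TSS window (1 kb on each side of the start of the gene record) and in the gene body (from 1 kb past the start to the end of the record). In untreated cells the TSS windows of 7 genes were at least 2 times above input, a size reached by 72% of coding genes tested, and after LPS 8 were, against 70.5%. In the gene body 4 of 9 reached it in each library, beside 24.2% and 21.2% of all genes. With libraries scaled to tags outside peaks 7 and 6 did, but the share of all genes under that scaling was not counted. The authors' peak lists held a Ser5 peak in the TSS window of 7 genes in untreated cells and of 8 after LPS (48.1% and 46% of all coding genes), and a peak somewhere in the record of 8 genes in each library (53.4% and 50.7%). By level at the start in untreated cells the order was Il10rb (29.0 TPM per kb), Il10ra (25.9), Il15 (19.1), Il4ra (13.8), Il6ra (11.5), Il17ra (7.02), Il15ra (4.59), Il13ra1 (0.722) and Il6st (0.591). The last value belongs to the start of the gene record, and around its RefSeq start Il6st had 15.1 TPM per kb, 9.89 times input, which would make it the 4th of the 9 and bring the genes above input to 8 in untreated cells and 9 after LPS. The intervals of Il10rb and Il10ra overlapped, as did those of Il4ra and Il6ra and of Il13ra1 and Il6st. The order within these pairs is not set by the counts. Those of Il17ra (5.75 to 8.48) and Il15ra (3.58 to 5.80) overlapped only at their edges. After LPS Il10ra and Il15 had the highest level at the start, each with 37.8 TPM per kb.

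**Figure D1:**
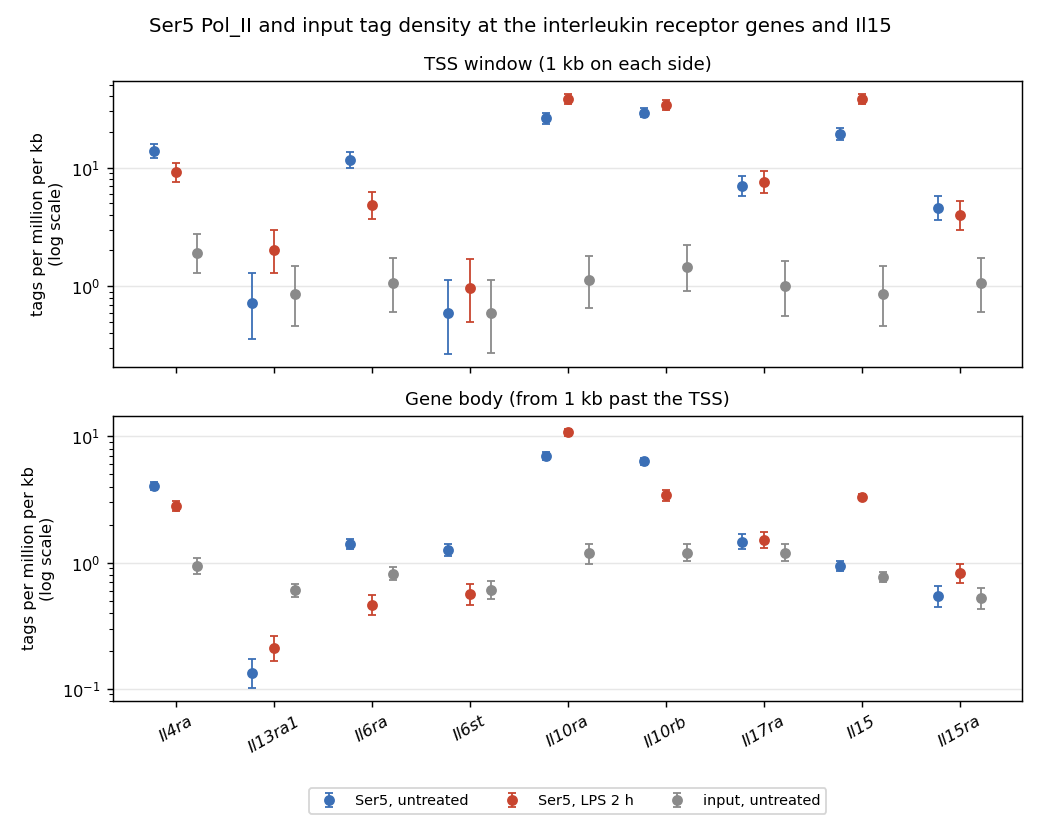
Ser5 and input tag density (TPM per kb, log axis) of the 9 genes in the TSS window (top) and the gene body (bottom), 1 point per library with its 95% counting interval. In the TSS window Il10ra, Il10rb and Il15 stood highest above input, whereas Il13ra1 and, at the start of its gene record, Il6st stayed near input in untreated cells (at its RefSeq start, not plotted, Il6st was at 9.89 times input), and in the gene body Il13ra1 lay under input in both Ser5 libraries.

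After LPS the 9 genes went in different directions. In the TSS window 1 gene was called higher (Il13ra1) and 1 lower (Il6ra), beside 5.6% and 14.1% of 12458 coding genes, and 7 differed by less than 2-fold. In the gene body 1 was called higher (Il15) and 2 lower (Il6ra and Il6st), beside 6.52% and 12% of 16372 genes. The median ratio of LPS to untreated over the 9 genes was 1.16 in the TSS window and 1.04 in the body, and over all genes tested it was 0.831 and 0.886. The intervals of 4 genes lay wholly above 1 and those of 4 wholly below 1 in the gene body, with Il17ra spanning it. The share of all coding genes with such intervals was not counted, so these counts say nothing particular about the 9 genes. Among the 4 above 1, Il13ra1 was under input in both libraries (0.220 and 0.346 times).

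**Figure D2:**
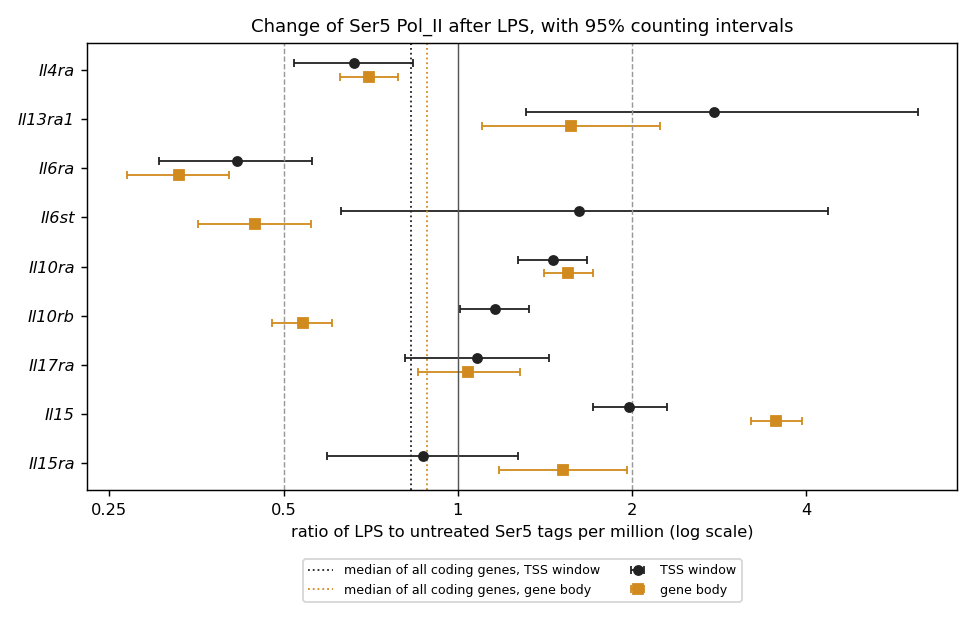
Ratio of LPS to untreated Ser5 in TPM (log axis) in the TSS window (circles) and gene body (squares) of each gene with 95% counting intervals. Dashed lines mark the 2-fold limits and dotted lines the medians of all coding genes. Il15 lay farthest to the right in the gene body (3.55) and Il6ra farthest to the left (0.330).

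Il15 encodes the only cytokine among the 9 genes, and its body showed the highest ratio of LPS to untreated Ser5. By level the Il10ra body gained more, from 6.96 to 10.8 TPM per kb, than that of Il15, from 0.937 to 3.33. The gene (ENSMUSG00000031712.7) lies on the minus strand at chr8:84855536-84927121. Its TSS window held 291 tags in untreated cells, 473 after LPS and 13 in input, and the LPS to untreated ratio came to 1.98 (1.71 to 2.30), just under the 2-fold limit. Its gene body of 70.58 kb held 504, 1469 and 409 tags, with 0.769 TPM per kb in input. The untreated level was 1.22 times input and the LPS level 4.33 times input, and with scaling to tags outside peaks these were 2.32 and 8.86. The LPS level was 3.55 times (3.21 to 3.94) the untreated one, at percentile 98.1 of all coding genes.

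Along Il15 the gain began downstream of the start. The kb before the TSS had a ratio of 1.08 (0.754 to 1.54) and the kb after it 2.27 (1.92 to 2.68). Cut into 4 equal parts from start to end, the body had ratios of 4.96, 3.60, 2.23 and 2.90. The ratio was therefore highest in the part next to the promoter, and still 3.0 (2.09 to 4.39) in the 5 kb past the end of the gene. The density at the start was 20.4 times that in the body in untreated cells and 11.4 times after LPS.

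The number of Ser5 peaks in Il15 went from 6 in untreated cells to 31 after LPS, and 26 of the 31 overlapped no untreated peak. How large this share was over all LPS peaks was not counted. Peaks covered 3.91% of the gene before and 21.1% after LPS. By their midpoints 13 of the LPS peaks lay in intron 1, 15 in intron 2, 2 in intron 5 and 1 in exon 1 of the coding transcript. The peak over exon 1 was 1262 bp long before and 2129 bp long after LPS, with scores of 2364.46 and 3100 (minus 10 times log10 of the authors' p-value). The score of 3100 was shared by 749 untreated and 739 LPS peaks, so peaks with that score cannot be ranked. LPS tags had 30 bases, and of all runs of 30 bases in the Il15 record 11.7% occurred more than once in the genome, the highest share among the 9 genes, whereas with only tags from runs found once in the genome the body ratio was 3.57.

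Il15ra, whose product carries IL-15 to the surface, had an interval above 1 in the body alone. It lies on the plus strand at chr2:11626914-11655613 (ENSMUSG00000023206.9). The TSS window held 70, 50 and 16 tags (untreated, LPS and input), and the ratio was 0.871 (0.593 to 1.27), with values on both sides of 1 under other starts, windows and scalings (0.65 to 1.05). The body held 114, 142 and 109 tags, and its ratio was 1.52 (1.18 to 1.96). The untreated body level was 1.03 times input and the LPS level 1.57 times input. The 4 body parts had ratios of 2.09, 0.667, 2.29 and 1.38 on 15 to 55 tags each, and showed no steady course from start to end. The single untreated peak at the start (score 400.3) was followed after LPS by a peak of score 86.19 at the same place and another of score 135.08 whose midpoint lay 527 bp past the start, in exon 1. Tags under the latter numbered 9 in untreated cells and 27 after LPS. Under the untreated peak at the start there were 57 and 18, and under the LPS peak there 50 and 17. The ratio of the TSS window thus took in a stretch with fewer tags after LPS and one with more.

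**Figure D3:**
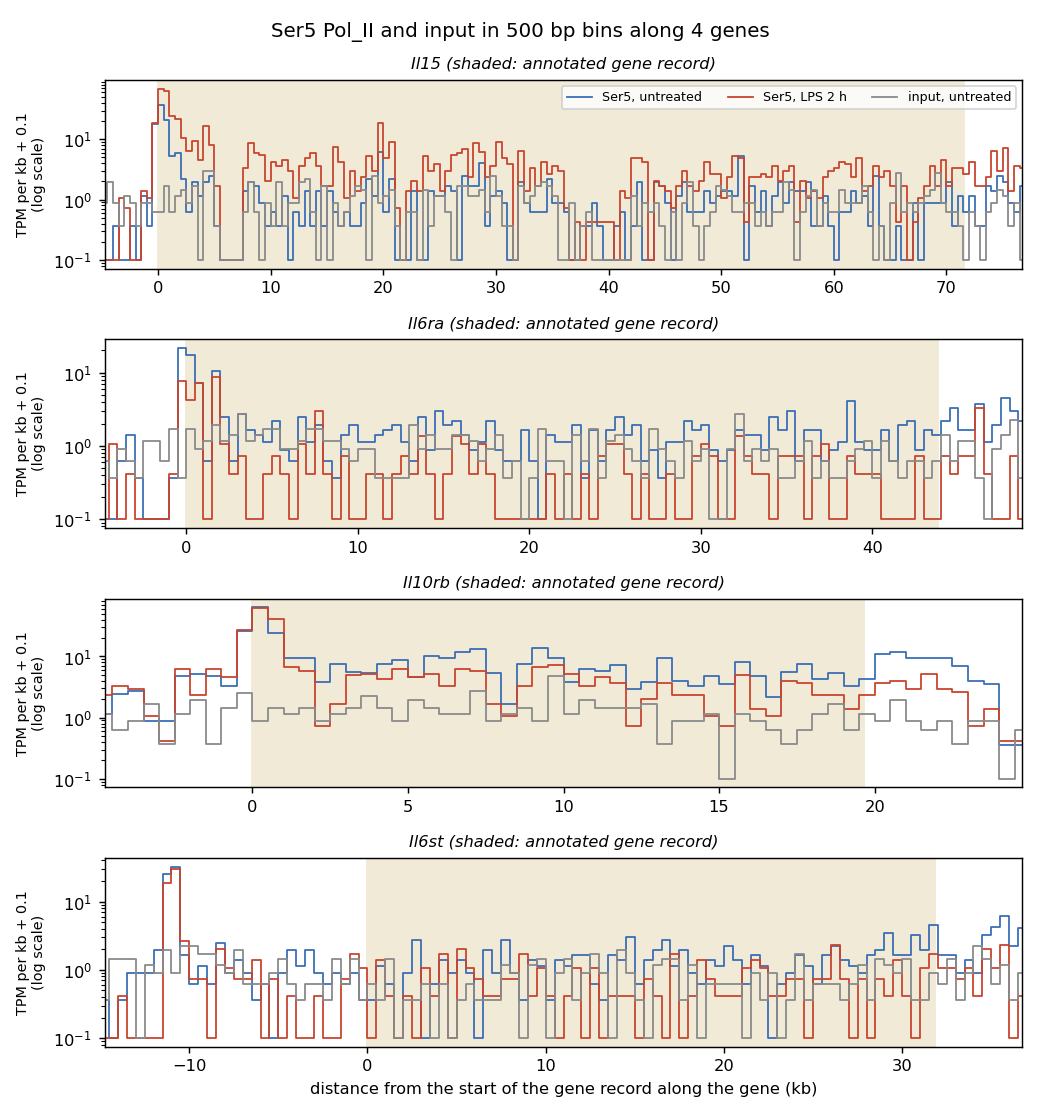
Ser5 and input density in 500 bp bins (TPM per kb plus 0.1, log axis) along Il15, Il6ra, Il10rb and Il6st, by distance from the start of the gene record, with the record shaded. In Il15 the LPS trace lay above the untreated trace through most of the gene, in Il6ra, Il10rb and Il6st it lay below through most of the body, and in Il6st the peak stood about 11 kb before the start of the record.

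Both chains of the IL-6 receptor had less Ser5 in the gene body after LPS. Il6ra (ENSMUSG00000027947.7, chr3:89673246-89717084, minus strand) held 176, 60 and 16 tags in its TSS window (untreated, LPS and input), and the LPS to untreated ratio was 0.415 (0.305 to 0.560). Its body held 458, 124 and 264 tags, a ratio of 0.330 (0.268 to 0.403), at percentile 3.81 of all genes. By level the Il10rb body lost more, from 6.35 to 3.42 TPM per kb, than that of Il6ra, from 1.40 to 0.463. The body went from 1.72 times input to 0.566 times input. This last value depends on the scaling, and when libraries were scaled to tags outside peaks it was 1.16.

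The level of Il6ra was lower in all 4 parts of the body, and the ratio was lowest in the last part. The 4 parts of the body had ratios of 0.462, 0.298, 0.311 and 0.205, and the 5 kb past the end 0.262 (0.153 to 0.428). The TSS peak had a score of 1055.02 over 1254 bp in untreated cells, and after LPS 2 shorter peaks with scores of 194.8 and 55.63 lay there. A second site in intron 1, centred 1772 bp past the start in untreated cells, held 44 tags before and 29 after LPS and was a peak in both lists. In the 500 bp bin centred 1750 bp past the start the level was 10.5 TPM per kb in untreated cells and 8.64 after LPS. In the bin at 750 bp it was 7.09 and 7.04, so the level was not lower to the same extent there. All 4 peaks in the 10 kb past the gene were found in untreated cells alone.

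The start of Il6st needs a separate account. The gene record (ENSMUSG00000021756.5, chr13:113265216-113297068, plus strand) begins 10938 bp downstream of the RefSeq start, which was placed at chr13:113254278 by an exact match of the RefSeq promoter. Around the record's start there were 9 tags in untreated cells, 12 after LPS and 9 in input, with no peak in either list and a ratio of 1.62 (0.628 to 4.37). Around the RefSeq start there were 230, 159 and 23 tags, and both lists held a peak there (scores 1587.78 and 1095.69). The ratio at the RefSeq start was 0.843 (0.684 to 1.04), close to the median of all genes.

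In the body of Il6st the level was lower after LPS. From 1 kb past the record's start to its end there were 295, 108 and 142 tags (untreated, LPS and input), for a ratio of 0.446 (0.355 to 0.558), and from 1 kb past the RefSeq start it was 0.489 (0.401 to 0.594). Divided by the median ratio of all genes the first value was 0.503, which no longer met the 2-fold limit. The untreated body stood 2.05 times above input, and the LPS body was at 0.917 times input (1.88 with scaling to tags outside peaks). All 5 peaks in the record were untreated peaks, with scores of 52.7 to 75.17, and none remained after LPS. The 4 body parts had ratios of 0.609, 0.395, 0.562 and 0.319.

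The 2 chains of the IL-10 receptor differed in their bodies. Il10ra, the ligand-binding chain (ENSMUSG00000032089.8, chr9:45061922-45077232, minus strand), held 395, 473 and 17 tags in the TSS window (untreated, LPS and input), and the LPS to untreated ratio was 1.46 (1.27 to 1.67). Its body held 759, 967 and 127 tags, a ratio of 1.55 (1.41 to 1.71), and had the highest body level of the 9 genes in both libraries (6.96 and 10.8 TPM per kb). In untreated cells its interval (6.48 to 7.48) overlapped that of Il10rb (5.94 to 6.78), so their order is not set there. All 4 body parts were higher after LPS (1.86, 1.46, 1.62 and 1.33), as were the 5 kb past the end (1.74). Peaks covered 77.4% of the gene in untreated cells and 93.2% after LPS. The longest peak spanned the end of the gene, with 5663 bp before and 5833 bp after LPS. At less than 2-fold, the difference was under the limit set for a call.

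Il10rb encodes the accessory chain that IL-10 shares with IL-22 and the type III interferons. The gene (ENSMUSG00000022969.5, chr16:91406409-91426074, plus strand) held 442, 420 and 22 tags in the TSS window (untreated, LPS and input), and the LPS to untreated ratio was 1.16 (1.01 to 1.33). With a window of 500 bp on each side this ratio was 0.993, so its direction is not settled. Its body held 903, 399 and 169 tags, a ratio of 0.539 (0.477 to 0.607), which is near the 2-fold limit without meeting it. The tags thus differed little at the start and more in the body, and the ratio of TSS density to body density went from 4.57 to 9.82, a change of 2.15-fold at percentile 95.3. By that measure 2 of the 9 genes were higher (Il10rb, and Il6st by its gene record) and 0 lower, beside 5.88% and 8.29% of 11558 genes, and the value of Il6st rests on a record without Ser5 at its start.

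Il10rb overlaps the same-strand gene Ifnar2, a chain of the type I interferon receptor, over 13288 bp, and Pol_II of the genes cannot be told apart there. Inside that overlap the body had 678 tags before and 315 tags after LPS, for a ratio of 0.566 (0.494 to 0.648). Past the end of the Ifnar2 record it had 225 and 84 tags, for a ratio of 0.455 (0.350 to 0.587). The ratio was below 1 in both stretches. The paper describes Pol_II that runs on for several kilobases past annotated gene ends. Pol_II of Ifnar2 therefore cannot be told apart past the end of its record either. The 10 kb to 1 kb before the Il10rb start, which lie in Ifnar2, had a ratio of 0.943 (0.778 to 1.14), and the TSS window of Ifnar2 had 1.22 (1.04 to 1.42).

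Peaks in Il10rb went from 21 in untreated cells to 7 after LPS, and 14 of the 21 overlapped no LPS peak. The share over all untreated peaks was likewise not counted. Peaks covered 70.4% and 24.9% of the gene. The TSS peak was in both lists, with 1826 bp and 1801 bp, and at 3100 in both its score does not compare the libraries. From intron 5 to exon 7 all peaks were untreated peaks, and past the end a peak of 1667 bp with 124 tags (score 763.79) was followed after LPS by 1 of 475 bp (score 89.46). The 5 kb past the end had a ratio of 0.367 (0.282 to 0.474).

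Il4ra and Il13ra1, the chains that bind IL-4 and IL-13, differed widely in level. Il4ra (ENSMUSG00000030748.7, chr7:132695785-132722986, plus strand) held 210, 114 and 29 tags in the TSS window (untreated, LPS and input), and the LPS to untreated ratio was 0.662 (0.522 to 0.835). Its body held 805, 464 and 186 tags, a ratio of 0.702 (0.625 to 0.788). Both intervals lay below 1 but the differences stayed under 2-fold. All 4 body parts were lower after LPS (0.654, 0.776, 0.545 and 0.770). A peak of 4402 bp over the end of the gene carried 430 tags in untreated cells (score 2034.92, the highest of the gene) and 204 after LPS, and within 2 kb of the gene end the density in untreated cells was 12.9 TPM per kb, close to the 13.8 at the start. After LPS it was 7.20, a ratio of 0.558 (0.465 to 0.668).

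Il13ra1 (ENSMUSG00000017057.8, chrX:33652105-33711254, plus strand) had the lowest body level of the 9 genes. Its TSS window held 11, 25 and 13 tags (untreated, LPS and input), for a ratio of 2.77 (1.31 to 6.24). The untreated window was at 0.837 times input and the LPS window at 2.32 times input (1.14 to 4.93). The call rests on few tags, and the interval reaches down to 1.31. No peak lay in the gene in untreated cells, and the 1 LPS peak, over exon 1, had a score of 70.36 with 14 tags against 6. Its body stayed under input in both libraries, at 0.220 and 0.346 times, and its ratio was 1.57 (1.10 to 2.24).

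Il17ra (ENSMUSG00000002897.3, chr6:120413215-120433745, plus strand) had the ratios nearest to 1. Its TSS window held 107, 95 and 15 tags (untreated, LPS and input), for a ratio of 1.08 (0.812 to 1.44). Its body held 217, 186 and 177 tags, a ratio of 1.04 (0.854 to 1.28). These intervals leave room for a change of up to 1.44-fold at the start. The TSS peak spanned 371 bp before LPS (score 886.82) and 427 bp thereafter (score 639.35), and the body lay at 1.21 and 1.27 times input.

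**Figure D4:**
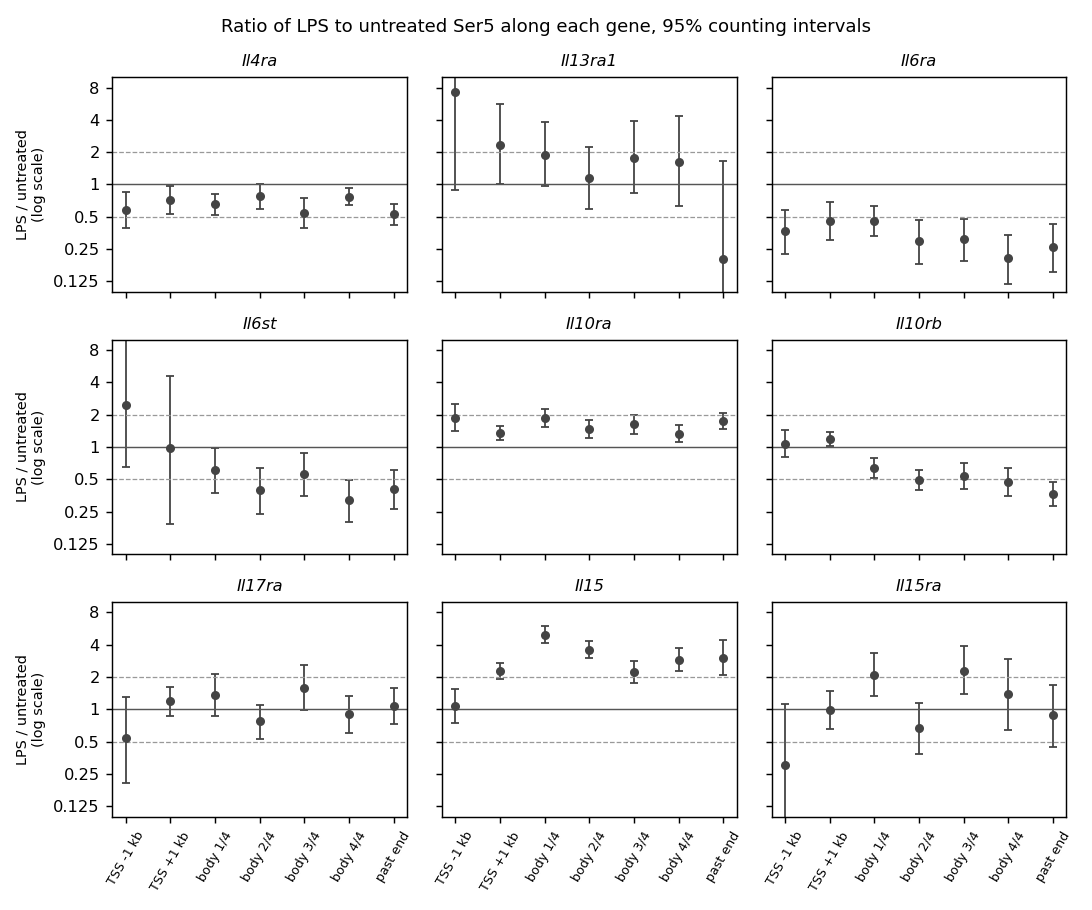
Ratio of LPS to untreated Ser5 (log axis) from the kb before the TSS to the 5 kb past the gene end for each of the 9 genes, with 95% counting intervals that are clipped at the frame, and dashed lines at 2-fold. In Il15 the ratio went from 1.08 before the TSS to 4.96 in body part 1. In Il10rb it went from 1.07 and 1.19 in the kb before and after the TSS to 0.367 past the end. In Il17ra all intervals included 1.

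Around the ends of the genes the ratios of the 8 genes with 10 tags or more lay on the same side of 1 as in the bodies, except in Il17ra. The last 2 kb of each gene lie in this window and in the body, so the likeness is partly built in. In the 4 kb centred on the gene end 1 gene was called higher (Il15, 3.40) and 3 lower (Il6ra, 0.207, Il6st, 0.372, and Il10rb, 0.395) among these 8. Over 11276 genes of at least 5 kb the shares were 8.92% and 22%. Il10ra was at 1.79, Il15ra at 1.29, Il17ra at 0.965 and Il4ra at 0.558. Il13ra1 had 4 and 2 tags there, a ratio of 0.609 (0.0551 to 4.25) beside 1.57 in its body.

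The rest of the pathway was read from 4 lists with 86 genes. In the gene body 78 reached 10 tags, and 16 of these were called higher and 4 lower, with a median ratio of 1.02. In the TSS window 54 did, with 10 higher, 2 lower and a median of 1.13. These shares may be set beside the 6.52% higher and 12% lower of all genes in the body, and 5.6% and 14.1% in the TSS window.

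Among 16 cytokine genes, nearly all of them for ligands of the receptors, 9 could be read in the body, and 5 were called higher and 0 lower. Il6 held 10 tags in untreated cells and 277 after LPS (33.8-fold), whereas its receptor gene Il6ra was at 0.330. Il10 held 19 and 58 tags (3.72-fold), and Il27, a cytokine that signals through gp130, held 100 and 474 (5.78-fold). Lif, likewise a gp130 cytokine, was at 2.95, and Ctf1 was at 2.13 on 4 and 7 tags.

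Of 21 kinases, STATs and adaptors 4 were called higher in the body and 2 lower. Among the higher ones, Jak2 was at 5.70 (4.95 to 6.57), Tyk2 at 2.43 and Stat2 at 2.38. The lower ones were Stat6, the STAT of the IL-4 receptor, at 0.483 (0.412 to 0.565), and Irs2, an adaptor of that receptor, at 0.447 (0.325 to 0.608). Divided by the median ratio of all genes they were at 0.545 and 0.505, and neither then met the 2-fold limit, and with scaling to tags outside peaks Stat6 was at 0.520 and Irs2 at 0.481. Il4ra itself was at 0.702, at percentile 29.5 of all coding genes, whose median was 0.886. Of 10 feedback genes, which restrain JAK and STAT signalling, 3 of the 9 with enough tags were called higher in the body, Socs3 at 24.3, Cish at 10.2 and Socs7 at 2.43, and Socs1 was at 2.93 in its TSS window.

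Of 39 other receptor chains 4 were called higher in the body and 2 lower. Il2rb and Il2rg encode the chains through which IL-15 signals, and they were at 3.25 (9 and 24 tags) and 2.26 (27 and 50 tags). Il2rb had 37 tags in input, more than in either Ser5 library. Il20rb was at 2.15 and Il22ra2 at 2.71 on 9 and 20 tags, and the latter also had more tags in input (70). Il7r was at 0.262 in the body and 0.417 in the TSS window (0.502 when divided by the median of all genes), and Il17rc was at 0.385. In the TSS window Il17rd was at 2.68 (0.859 to 9.84) on 5 and 11 tags, with 13 in input. Lifr was at 0.229 there on at most 16 tags in a library.

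For each of the 9 genes the coding gene with the most similar levels was sought, by the distance over 4 values (log2 of TPM per kb plus 0.1 in the TSS window and body of both Ser5 libraries) among genes of 0.5 to 2 times its length. It was Ehmt2 for Il4ra (distance 0.27), Myb for Il13ra1 (0.20), Timp2 for Il6ra (0.22), Tmem120b for Il6st (0.73), 1110007C09Rik for Il10ra (0.37), Dennd4b for Il10rb (0.42), Rae1 for Il17ra (0.15), 2010106G01Rik for Il15 (0.35) and Fam98b for Il15ra (0.30). None of the 9 was nearest to another of the 9. For Il6st the TSS window was that of its gene record, which lacks the Ser5 peak at the RefSeq start, so its match rests on that window. With 2 libraries these distances describe levels and nothing else.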

How the data were processed

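The 3 libraries were grouped by their labels, which name LPS alone as the stimulus. Per the study's methods, the authors trimmed reads of 76 bases from the 3′ side, used Bowtie to align them to mm9, kept unique matches with at most 2 mismatches, and called peaks with MACS in each Ser5 library against input at a p-value of 1e-05. The versions, and the settings of the input library, are not given in the sources used here. The deposited tag files hold 1 line per aligned tag, duplicates included (81.4% to 84.5% of tags were distinct), and the deposited peak lists hold a score, minus 10 times log10 of the p-value. Tags were 45 bases long in the untreated, 30 in the LPS and 36 in the input library, and the methods text gives the first pair in reverse order. Shorter tags match fewer places uniquely. The labels were therefore checked with LPS-induced genes.

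Tags on chromosomes 1 to 19 and X were counted by their 5′ end and scaled to all such tags. Poisson intervals and intervals of ratios, conditional on the sum, were exact, and PCR copies make true errors larger. For the 2-fold rule 0 tags were set to 0.5. Genes came from GENCODE M1 on NCBIM37, and RefSeq starts (GRCm38.p6 promoters) were placed by exact match for Il4ra, Il13ra1, Il6ra, Il6st and Il15ra. A peak was assigned when it overlapped a region by at least 1 bp. For peaks found in 1 library alone, also at Il6ra and Il6st, the share over the whole peak lists was not counted. Peak scores were taken as given. The 9 genes, the lists, the motifs and the alternatives were chosen with earlier results of these data known. The genes named are the 9, the list genes past the fold, the genes of the label check, the nearest gene by level and overlapping neighbours. A list gene is counted but not reported by name here. The alternatives were 1 tag per position and strand, tags moved by 75 bp, other scalings, floors, folds, starts and windows, tags unique in 30 bases, and stricter peaks. Counting and intervals were tested on simulated data. Python 3.11.15, numpy 2.4.6, pandas 2.3.3, scipy 1.17.1, numba 0.67.0 and matplotlib 3.10.9 were used.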

Additional observations from a re-analysis of the deposited data

How the results depend on the processing

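No paired analysis was possible because each condition has 1 library and the labels give no replicate numbers. In the TSS window the number of the 9 genes called higher was 1, and it was 2 with scaling to tags outside peaks, with division by the median ratio of all genes and with a window of 2 kb on each side, Il15 (1.98) being the added gene, and 3 with a fold of 1.5. The number called lower there was 1 and became 2 with a fold of 1.5. In the gene body the number called higher was 1 and became 4 with a fold of 1.5 (Il13ra1, Il10ra and Il15ra were added), and the number called lower was 2 and became 1 with division by the median, Il6st being lost. The shares of all coding genes called under these alternatives, which may also differ, were not counted. Over the 4 lists the TSS calls higher were 10 and became 22 without the floor of 10 tags, the TSS calls lower were 2 and became 7 without the floor, 1 with a floor of 20 tags and 1 with division by the median, and the body calls lower were 4 and became 2 with division by the median, Stat6 and Irs2 being lost. From the RefSeq start, an alternative chosen after seeing the data, the ratio of TSS density to body density of Il6st in untreated cells was 13.1 and not 0.470, since the window then held the Ser5 peak. Other counts, 72 in all, stayed within 1.5 times of those reported. Over all alternatives the body ratio of LPS to untreated was 3.16 to 4.01 for Il15, 0.330 to 0.372 for Il6ra, 0.419 to 0.503 for Il6st, 0.539 to 0.712 for Il10rb and 1.49 to 1.75 for Il10ra. In the TSS window Il15 ranged from 1.59 to 2.38 and Il6ra from 0.305 to 0.500, whereas Il10rb (0.993 to 1.39), Il17ra (0.999 to 1.30), Il15ra (0.650 to 1.05) and Il6st (0.843 to 1.96) were found on both sides of 1. Scaling to tags outside peaks moved the median ratio of all genes from 0.831 to 0.894 in the TSS window and from 0.886 to 0.954 in the body, and raised every ratio of Ser5 to input. The unreplicated design limits all comparisons, since the spread between cultures is unknown and the intervals cover counting alone. With few tags, as at the start of Il13ra1, the interval of a ratio was wide (1.31 to 6.24).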
